A study of Rattus norvegicus with 9 samples.

Results

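Pparg and 8 genes that work with it were followed in cultured vascular smooth muscle cells from the rat thoracic aorta. They were picked by name from a table of 32792 genes, with their levels in these libraries already known. The 9 genes are Pparg, Ppard, Rxra, Rxrb, Nr1h2, Cebpb, Ncor1, Ncoa1 and Med1. Because their levels helped to choose them, their levels and differences are given as a description and carry no test. All 9 passed the filter on low values.

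RNA was sequenced from 3 groups of 3 libraries. CTSD AGEs cells were transfected to overexpress cathepsin D (CTSD), a protein-cutting enzyme of lysosomes. They were exposed for 24 h to 200 µg/mL of AGEs, the advanced glycation end products that form when sugars react with proteins. Vector AGEs cells carried an empty vector and received the same AGEs. Vector BSA cells carried the empty vector and were given BSA (bovine serum albumin) instead. All 3 groups were transfected, so none shows cells without a vector. The sources used here do not give the promoter of the vector or the number of source animals and cultures, so the spread between libraries may be partly technical.

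PPARγ, the product of Pparg, is a nuclear receptor that binds fatty acids and their derivatives and is the target of the glitazone drugs. It sits on DNA as a pair with a retinoid X receptor (RXR). Without ligand the pair holds corepressors such as NCOR1 with histone deacetylases, and with ligand it takes up coactivators such as NCOA1 and the Mediator subunit MED1. PPARγ drives fat cell formation, where C/EBPβ helps to switch on its gene, and in vascular smooth muscle it is known for restraining proliferation, migration and inflammation.

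The libraries held 4492707 to 5342013 fragments assigned to genes. FPKM scale those fragments by gene length and by the library total, so they can be compared between genes of different length. Ctsd averaged 199 ± 3.88 FPKM in CTSD AGEs cells and 13.9 ± 0.808 in vector AGEs cells (SD, n = 3 each). Smooth muscle markers were present, led by Tpm2, but 4 of 10, among them Myh11 and Cnn1, were too low to test. Over the 9 libraries Tpm2 averaged 106 FPKM, Smtn 19.2, Cald1 19.05, Tagln 15.2, Acta2 13.2 and Myl9 1.74 FPKM. Of 7 adipocyte markers, 5 stood at 0 FPKM throughout, and so did Ptprc and Adgre1 of the macrophage and Cdh5 and Kdr of the endothelium. B2m, Fth1 and Hprt1, which most cells use, were also listed at 0 in all 9 libraries, so a 0 in this table cannot be read as a silent gene.

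Pparg (ENSRNOG00000008839, chromosome 4, 147274107 to 147399380 in the deposited annotation) was the most abundant of the 9 and ranked 407 of the 8532 genes tested. It stood at 387, 387 and 408 FPKM in the 3 CTSD AGEs libraries. In vector AGEs libraries it stood at 309, 310.5 and 292 FPKM, and in vector BSA libraries at 258, 258 and 241 FPKM. The groups formed 3 separate steps with no overlap between any pair. Between 2034 and 3797 fragments per library lay behind these values. The means were 394 ± 12.2 FPKM in CTSD AGEs, 304 ± 10.2 in vector AGEs and 253 ± 9.92 in vector BSA cells (SD, n = 3 each). Pparg was therefore 1.30-fold higher in CTSD AGEs than in vector AGEs cells, a difference of 0.37 in mean log2(FPKM + 1). It was 1.20-fold higher in vector AGEs than in vector BSA cells (0.27 on the same scale), and 1.56-fold higher in CTSD AGEs than in vector BSA cells (0.64). The last pair differs in both CTSD and AGEs. In bulk RNA, a change in the number of cells that express a gene and a change in RNA per cell cannot be told apart.

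Nr1h2 (ENSRNOG00000019812, chromosome 1, 100554544 to 100559942) encodes LXRβ, an oxysterol receptor that also pairs with RXR and turns on genes of cholesterol export and fatty acid synthesis. It reached 39.5, 39.6 and 42.9 FPKM in CTSD AGEs libraries. In vector AGEs libraries it had 31.7, 29.5 and 29.1 FPKM, and in vector BSA libraries 30.5, 26.99 and 29.9 FPKM. Every CTSD AGEs library lay above every vector library, while the 2 vector groups overlapped. The mean of 40.7 ± 1.91 FPKM in CTSD AGEs cells was 1.35-fold that of vector AGEs cells, 30.1 ± 1.45 (SD, n = 3 each; log2 difference 0.42). Between the vector groups the log2 difference was 0.05, ranging from -0.0055 to 0.08 with 1 library left out (-0.0055 without vector BSA replicate 2).

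Ppard (ENSRNOG00000000503, chromosome 20, 7818289 to 7885333) encodes PPARδ, a broadly expressed relative of PPARγ known for fatty acid oxidation genes. Its values were 15.6, 13.6 and 11.4 FPKM in CTSD AGEs libraries, the widest spread of that group after Cebpb. Vector AGEs libraries had 9.24, 10.04 and 9.77 FPKM and vector BSA libraries 9.30, 10.9 and 10.6 FPKM. All 3 CTSD AGEs libraries again lay above all vector libraries, with the lowest only slightly above the highest of the vector BSA group. The mean was 13.6 ± 2.11 FPKM in CTSD AGEs and 9.68 ± 0.410 in vector AGEs cells (SD, n = 3 each; log2 difference 0.44). Between the vector groups it was -0.07, and its sign turned with quantile normalization (0.05) and with a trend over gene length removed (0.07). Pparg exceeded Ppard 29.7 ± 5.64 times in CTSD AGEs, 31.4 ± 1.85 times in vector AGEs and 24.7 ± 2.66 times in vector BSA cells (SD of the ratio per library, n = 3 each).

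**Figure D1:**
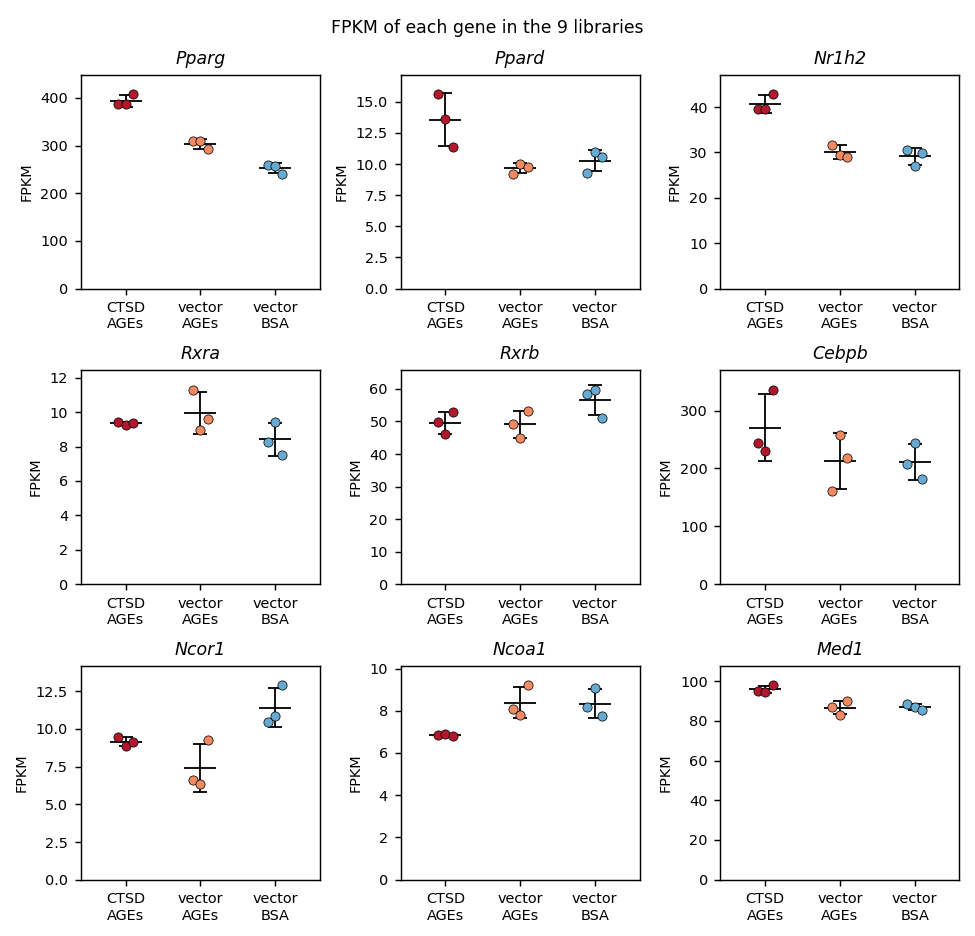
FPKM of each of the 9 genes (y axes, from 0) in CTSD AGEs, vector AGEs and vector BSA cells (x axes). Points are libraries, and the lines are the mean ± SD of 3. Pparg forms 3 separate steps, Nr1h2 is highest in CTSD AGEs cells, and Rxra and Rxrb overlap between CTSD AGEs and vector AGEs cells.

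In Pparg, Nr1h2, Ppard and Med1, every CTSD AGEs library lay above every vector library, and this served only to choose sequences to show. Of all tested genes, 26.2% lay higher without overlap in CTSD AGEs than in vector AGEs cells, and 24.0% than in vector BSA cells. The share above both vector groups was not computed. RefSeq (build GRCr8) gives a window of 250 bases before to 50 bases after a start, and 8 windows matched 7 of the 9 genes, all but Ppard and Med1. The sequences of Pparg and Nr1h2 are therefore shown. Pparg has 2 starts there, and its transcripts are known to use separate promoters for the γ1 and γ2 forms. The deposited values are per gene and do not separate them. Capitals mark letters that match the GC box GGGCGG, the C/EBP site TTGCNNAA, the ETS site CCGGAAG, the core TGACG of cyclic AMP response elements or the nuclear receptor core AGGTCA on either strand, and matches may overlap. The windows are chr4:150096808-150097107 and chr4:150154522-150154821 on the plus strand for Pparg, and chr1:104183814-104184113 on the minus strand for Nr1h2, each read 5′ to 3′ along the gene.
Pparg, upstream start: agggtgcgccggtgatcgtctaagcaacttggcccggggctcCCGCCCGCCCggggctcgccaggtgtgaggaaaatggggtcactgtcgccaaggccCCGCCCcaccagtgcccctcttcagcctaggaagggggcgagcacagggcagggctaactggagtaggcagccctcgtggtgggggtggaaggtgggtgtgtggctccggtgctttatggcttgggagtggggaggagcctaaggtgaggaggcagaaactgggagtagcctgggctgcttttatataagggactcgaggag
Pparg, downstream start: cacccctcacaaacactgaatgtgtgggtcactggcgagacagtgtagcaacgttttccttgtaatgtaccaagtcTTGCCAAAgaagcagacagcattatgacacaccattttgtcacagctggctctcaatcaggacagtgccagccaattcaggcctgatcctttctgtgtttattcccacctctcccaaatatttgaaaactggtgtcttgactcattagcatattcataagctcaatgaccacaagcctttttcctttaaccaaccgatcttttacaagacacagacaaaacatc
Nr1h2: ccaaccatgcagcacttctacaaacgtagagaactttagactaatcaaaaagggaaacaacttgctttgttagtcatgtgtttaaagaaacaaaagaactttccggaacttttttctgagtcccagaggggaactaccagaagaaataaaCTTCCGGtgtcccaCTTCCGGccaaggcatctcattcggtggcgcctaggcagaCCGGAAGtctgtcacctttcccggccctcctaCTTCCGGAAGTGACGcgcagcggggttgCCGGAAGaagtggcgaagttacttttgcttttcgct

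The 3 windows held different motifs. The upstream Pparg window had 3 GC boxes, 208, 204 and 152 bases before the start, of which the first 2 overlap, and 64.7% G and C. The downstream Pparg window had 43.7% G and C, no GC box and a single C/EBP match, 174 bases before the start. Nr1h2 had 6 ETS matches, 2 of them overlapping as a palindrome, and 1 cyclic AMP core. Among all 33469 RefSeq windows of this length, 33.1% held a GC box, 10.6% the C/EBP letters, 8.75% the ETS letters, 21.2% the cyclic AMP core and 16.2% AGGTCA. None of the 8 windows of the 9 genes held AGGTCA, which says only that these letters are not in these windows. Cebpb held 3 cyclic AMP cores, Ncoa1 7 GC boxes and Rxra a C/EBP match.

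The RXR genes were less abundant than Pparg in every library. Rxra (ENSRNOG00000009446, chromosome 3, 6211789 to 6295908) had 9.44, 9.25 and 9.35 FPKM in CTSD AGEs libraries. It had 11.3, 8.96 and 9.62 FPKM in vector AGEs and 8.28, 9.45 and 7.51 FPKM in vector BSA libraries, on 67 to 106 fragments in a library. The groups overlapped, and the log2 differences were -0.08 for CTSD AGEs against vector AGEs and 0.22 for vector AGEs against vector BSA cells. The value between the vector groups was 0.13 without vector AGEs replicate 1 and 0.15 without vector BSA replicate 3, and 0.35 with quantile normalization. The value under CTSD was -0.14 with median-of-ratios scaling, -0.15 with quantile normalization and -0.15 without vector AGEs replicate 2, and 0.01 without vector AGEs replicate 1.

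Rxrb (ENSRNOG00000000464, chromosome 20, 3823042 to 3829140) had more FPKM than Rxra. Its deposited gene model is short, 1060 bases, beside 1985 bases for Rxra, and FPKM depend on these lengths. In fragments, Rxrb had 236 to 328 in a library and Rxra 67 to 106. It had 49.7, 46.1 and 52.9 FPKM in CTSD AGEs, 49.3, 44.9 and 53.3 FPKM in vector AGEs, and 58.4, 59.8 and 51.2 FPKM in vector BSA libraries. The groups overlapped, with a log2 difference of 0.01 for CTSD AGEs against vector AGEs cells (-0.05 with median-of-ratios scaling). It was -0.20 for vector AGEs against vector BSA cells, and -0.13 without vector AGEs replicate 2. Rxrb exceeded Rxra 5.30 ± 0.339 times in CTSD AGEs, 4.97 ± 0.591 times in vector AGEs and 6.73 ± 0.367 times in vector BSA cells (SD, n = 3 each). The ratio was thus lower in each AGEs library than in any vector BSA library. Rxrg, the last RXR gene, was listed at 0 in all libraries.

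The level of Pparg relative to its RXR partners had the same order of groups as Pparg itself. Pparg over the sum of Rxra and Rxrb was 6.70 ± 0.263 in CTSD AGEs, 5.17 ± 0.561 in vector AGEs and 3.90 ± 0.192 in vector BSA cells (SD, n = 3 each). The libraries of the 3 groups did not overlap in this ratio. The partners also entered it: between vector AGEs and vector BSA cells Rxrb averaged 49.2 and 56.5 FPKM, and Rxra 9.96 and 8.41 FPKM. For Nr1h2 over the same sum, CTSD AGEs cells had 0.691 ± 0.0237, vector AGEs cells 0.511 ± 0.0437 and vector BSA cells 0.452 ± 0.0602, with overlap between the vector groups. These are ratios of RNA levels and say nothing of protein pairs.

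**Figure D2:**
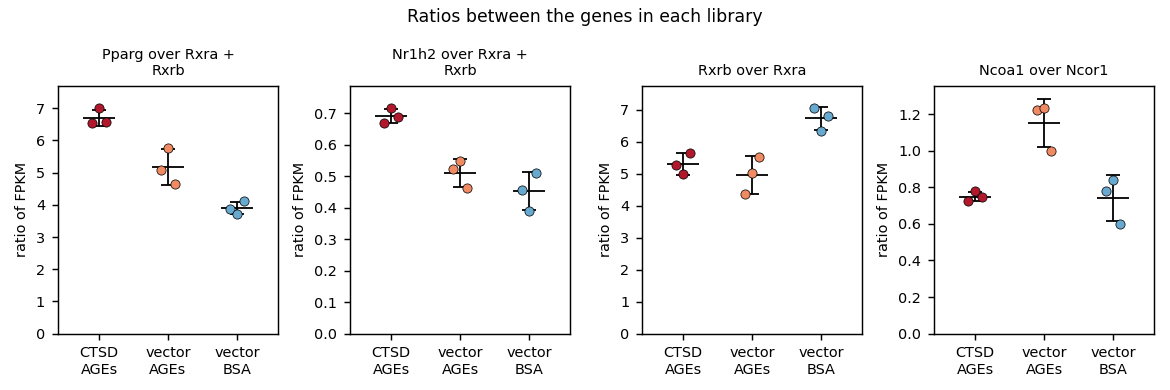
Ratios of FPKM between genes in each library (y axes, from 0) for CTSD AGEs, vector AGEs and vector BSA cells (x axes). Points are libraries, and the lines are the mean ± SD of 3. Pparg over the sum of Rxra and Rxrb separates all 3 groups, and Ncoa1 over Ncor1 is high in vector AGEs cells.

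Cebpb (ENSRNOG00000057347, chromosome 3, 164424515 to 164425910), a stress and cytokine-induced transcription factor gene, was the second most abundant. It had 245, 230.5 and 337 FPKM in CTSD AGEs libraries, 161, 258 and 218 FPKM in vector AGEs libraries, and 208, 244 and 182 FPKM in vector BSA libraries. The libraries of a group differed widely and all groups overlapped. Its coefficient of variation was 21.3% in CTSD AGEs, 22.8% in vector AGEs and 14.8% in vector BSA cells, against 3.11%, 3.36% and 3.93% for Pparg in the same groups. With 1062 to 2152 fragments in a library, counting error is small beside this spread. The log2 difference of 0.35 for CTSD AGEs against vector AGEs cells was 0.19 without CTSD AGEs replicate 3 and 0.17 without vector AGEs replicate 1. Between vector AGEs and vector BSA cells it was -0.01, and its sign was not stable: 0.17 without vector AGEs replicate 1 and -0.16 without vector AGEs replicate 2.

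Of the cofactors, the corepressor gene Ncor1 (ENSRNOG00000055246, chromosome 10, 48629121 to 48772890) was lower in vector AGEs than in vector BSA cells. It had 9.46, 8.87 and 9.12 FPKM in CTSD AGEs libraries, 6.61, 6.35 and 9.24 FPKM in vector AGEs libraries, and 10.5, 10.8 and 12.9 FPKM in vector BSA libraries. Vector AGEs replicate 3 lay among the CTSD AGEs libraries and still below all vector BSA libraries. The mean was 7.40 ± 1.60 FPKM in vector AGEs cells and 11.4 ± 1.31 in vector BSA cells (SD, n = 3 each), a log2 difference of -0.58. Ncor1 has the longest gene model of the 9, 8307 bases. With a trend over gene length removed the difference was -0.34, and without vector AGEs replicate 3 it was -0.73. For CTSD AGEs against vector AGEs cells the groups overlapped, at 0.29, which was 0.19 with the length trend removed, 0.44 without vector AGEs replicate 3 and 0.20 without vector AGEs replicate 2.

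Ncoa1 (ENSRNOG00000004068, chromosome 6, 28677540 to 28931843), which encodes the coactivator SRC-1, went the other way with CTSD. It had 6.86, 6.90 and 6.79 FPKM in CTSD AGEs libraries, 8.10, 7.82 and 9.22 FPKM in vector AGEs libraries, and 8.18, 9.09 and 7.73 FPKM in vector BSA libraries. All CTSD AGEs libraries lay below all vector libraries, and the vector groups overlapped. The log2 difference was -0.25 for CTSD AGEs against vector AGEs cells and 0.01 for vector AGEs against vector BSA cells. The last value was 0.19 with the length trend removed, and -0.06 to 0.06 with 1 library left out (-0.06 without vector AGEs replicate 3). Ncoa1 over Ncor1 was 0.750 ± 0.0268 in CTSD AGEs, 1.15 ± 0.133 in vector AGEs and 0.739 ± 0.125 in vector BSA cells (SD, n = 3 each), so each vector AGEs library lay above all others.

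Med1 (ENSRNOG00000005606, chromosome 10, 86103600 to 86144880), the Mediator subunit through which nuclear receptors contact RNA polymerase, differed little between groups. It had 95.1, 94.6 and 98.0 FPKM in CTSD AGEs libraries, 87.1, 83.2 and 89.7 FPKM in vector AGEs libraries, and 88.2, 86.96 and 85.5 FPKM in vector BSA libraries. CTSD AGEs libraries lay above all vector libraries by a small margin, a log2 difference of 0.14 from vector AGEs cells. This was 0.08 with median-of-ratios scaling and 0.07 with the length trend removed. Between the vector groups the libraries overlapped, at -0.0043 (0.06 with median-of-ratios scaling and 0.18 with the length trend removed).

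In order of mean level over the 9 libraries, the genes ran from Pparg at 317 FPKM over Cebpb at 232, Med1 at 89.8, Rxrb at 51.7 and Nr1h2 at 33.3 to Ppard at 11.2, Ncor1 at 9.32, Rxra at 9.24 and Ncoa1 at 7.86 FPKM. Pparg and Cebpb overlapped in range across libraries, though Pparg was the higher in each library (1.06 to 1.92 times). The last 4 overlapped with their neighbours and have no clear order, except for Ppard and Ncoa1. The lowest Ppard library (9.24 FPKM) lay just above the highest Ncoa1 library (9.22 FPKM).

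For CTSD AGEs against vector AGEs cells, 4 of the 9 genes lay higher without overlap between groups, beside 26.2% of all tested genes. The 4 are Pparg, Ppard, Nr1h2 and Med1, and 1 of 9, Ncoa1, lay lower without overlap, beside 17.7% of all tested genes. For vector AGEs against vector BSA cells, 1 of 9 lay higher, Pparg, beside 12.8%, and 1 of 9 lower, Ncor1, beside 19.8%. For CTSD AGEs against vector BSA cells, 4 lay higher beside 24.0% and 2 lower beside 24.8%. Nothing is read from these counts, since the levels were known when the genes were picked. The last comparison shares its libraries with the other two.

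**Figure D3:**
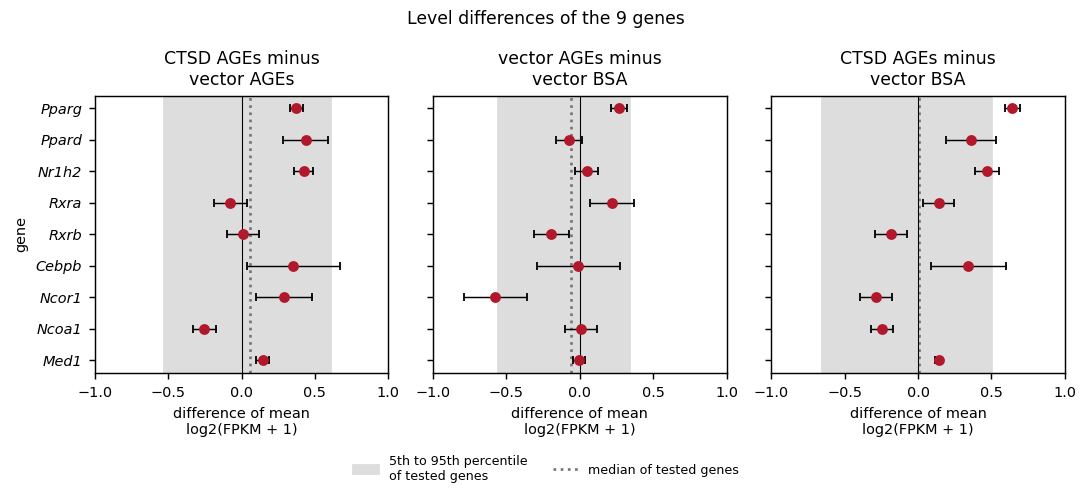
Difference of mean log2(FPKM + 1) for each of the 9 genes (y axis) in the 3 pairs of groups. Bars are the within-group SD of the log2 values, the grey band spans the 5th to 95th percentile of tested genes and the dotted line is their median. Pparg lies above the band for CTSD AGEs minus vector BSA (0.64) and Ncor1 at its lower edge for vector AGEs minus vector BSA (-0.58).

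The genes whose log2(FPKM + 1) followed Pparg most closely over the 9 libraries were Anxa11 (Pearson r = 0.987), Hoxc6 (0.986), Arrdc1 (0.981), Lrp5 (0.977) and Pgam1 (0.977). They were taken from 5877 genes with a mean of at least 5 FPKM. Anxa11 averaged 111 ± 1.55 FPKM in CTSD AGEs, 92.9 ± 1.93 in vector AGEs and 78.6 ± 1.28 in vector BSA cells (SD, n = 3 each), the same 3 steps as Pparg. The genes most opposed were Rtn4 (-0.993), Klf6 (-0.988), Mast2 (-0.986), Sfpq (-0.984) and Eif2s2 (-0.982). Sfpq, a splicing factor gene, averaged 54.6 ± 1.66 FPKM in CTSD AGEs, 103 ± 2.08 in vector AGEs and 141 ± 6.71 in vector BSA cells. Among the other 8 genes, Nr1h2 had the highest r with Pparg, 0.906, and Ncoa1 the lowest, -0.765. The 9 libraries form 3 groups, so these coefficients mainly describe group means and carry no p.

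The rest of the pathway was read from 9 lists of 236 genes, none of them among the 9, of which 229 had a row and 152 passed the filter. limma was fitted to all 8532 genes, and calls were made at 0.05 after Benjamini-Hochberg adjustment. Under CTSD, comparing CTSD AGEs with vector AGEs cells, 37 of 152 rose and 20 fell, beside 18.6% and 12.0% of all tested genes. Under AGEs, comparing vector AGEs with vector BSA cells, 14 of 152 rose and 12 fell, beside 6.05% and 8.92% of all tested genes. The split rests in part on scaling. With median-of-ratios scaling it was 31 higher and 25 lower under CTSD, and 18 higher and 9 lower under AGEs. With quantile normalization it was 30 and 25 under CTSD and 13 and 9 under AGEs, and with the length trend removed 32 and 25, and 17 and 7. The AGEs total of 26 was 17 without vector AGEs replicate 1, 16, 17 and 16 without vector BSA replicate 1, 2 and 3, and 35 without vector AGEs replicate 3, with 21 of those lower.

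Among other nuclear receptors, 7 of 19 tested genes rose under CTSD and 0 fell by limma, beside 18.6% and 12.0% of all tested genes. At an unadjusted p under 0.05, 2 fell, and 0 fell with voom. The median log2 fold change was 0.28 beside 0.05 over all tested genes. The median-of-ratios scaling and the length trend removal each added 2 falls. Thra, the thyroid hormone receptor α gene, averaged 255 ± 8.99 FPKM in CTSD AGEs and 149 ± 4.81 in vector AGEs cells (SD, n = 3 each). Its log2 fold change was 0.78 (SE 0.04, limma adjusted p = 3.48e-06). Thra and Nr1d1 overlap in the deposited annotation, and without strand their shared reads cannot be told apart. Nr1d1, named here after its values were seen, is also among the 7 that rose (0.32, adjusted p = 0.00315). The retinoic acid receptor genes Rarg and Rara, whose products also pair with RXR, rose by 0.57 (adjusted p = 0.00123) and 0.45 (adjusted p = 0.000272). Nr2f1, an orphan receptor gene, rose by 0.53 (adjusted p = 0.00264). Ppara, the remaining PPAR gene, was low, at 4.53 ± 0.539 FPKM in CTSD AGEs and 3.61 ± 0.975 in vector AGEs cells, and did not pass (adjusted p = 0.322).

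Under AGEs, 2 of these 19 receptors rose and 3 fell, beside 6.05% and 8.92% of all tested genes. The 3 falls were 1 without vector AGEs replicate 1 or 2 and 0 without vector BSA replicate 1 or 2. Nr1h3, which encodes LXRα, the close relative of LXRβ, had 39.7, 45.2 and 36.7 FPKM in vector AGEs and 30.3, 29.7 and 29.3 FPKM in vector BSA libraries. It rose by 0.43 (SE 0.09, limma adjusted p = 0.011). Its CTSD AGEs libraries overlapped the vector AGEs ones (log2 fold change -0.25, adjusted p = 0.0594). This fall under CTSD passed with median-of-ratios scaling (0.0265), with the length trend removed (0.0285) and over genes with a mean of at least 5 FPKM (0.0469). It also passed without CTSD AGEs replicate 1 (0.0326) or vector AGEs replicate 3 (0.0314), so the call depends on the setting. Nr1d1, a circadian repressor gene that overlaps Thra in the annotation, rose by 0.35 (adjusted p = 0.0056). Nr1d2 fell by 0.67 (adjusted p = 0.0213), a call lost without vector AGEs replicate 1 or 2 or vector BSA replicate 1 or 2 (adjusted p 0.0661 to 0.08). Nr2c2 fell by 0.44 (adjusted p = 0.0274), a call lost without vector AGEs replicate 2 or any single vector BSA replicate (0.0579 to 0.094), and with quantile normalization (0.074).

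Corepressor genes had 6 of 13 lower under CTSD and 0 higher by limma, beside 12.0% lower and 18.6% higher of all tested genes. Also at an unadjusted p under 0.05 and with voom, 0 were higher. The median was -0.28 beside 0.05 over all tested genes. Hdac1, a histone deacetylase gene, stood at 54.7, 52.9 and 56.8 FPKM in CTSD AGEs libraries and 87.0, 80.3 and 82.4 FPKM in vector AGEs libraries. It fell by 0.59 (SE 0.06, adjusted p = 5.49e-05), and Hdac2 fell by 0.34 (adjusted p = 0.0124). Cops2, a corepressor of thyroid hormone receptors and a signalosome subunit, fell by 0.76 (adjusted p = 0.00477) and overlaps Galk2 in the annotation. Tbl1xr1, part of the NCOR complex, fell by 0.51 (adjusted p = 0.0255), a call lost without CTSD AGEs replicate 1 or 3 or vector AGEs replicate 3 (0.0598 to 0.0788). The other two, Ctbp2 at -0.28 and Ctbp1 at -0.15, are named after their values were seen. Ctbp1 lost its call without any single CTSD AGEs replicate or vector AGEs replicate 1 or 2 (adjusted p 0.057 to 0.0929). With 1 library left out, 4 to 6 corepressors were lower. Other members of the NCOR complex, also named after their values were seen, did not pass: Hdac3 was at -0.06 (adjusted p = 0.696), Tbl1x at -0.14 (0.12) and Gps2 at 0.09 (0.668). Under AGEs 0 of 13 passed by limma, beside 6.05% higher and 8.92% lower of all tested genes. At an unadjusted p under 0.05, 1 was higher and 1 lower, and with voom 1 was lower. Without vector AGEs replicate 3, 2 fell. The 2 most abundant were Ctbp1 at 0.03 (adjusted p = 0.718) and Hdac1 at 0.15 (0.118, and 0.0372 with median-of-ratios scaling).

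**Figure D4:**
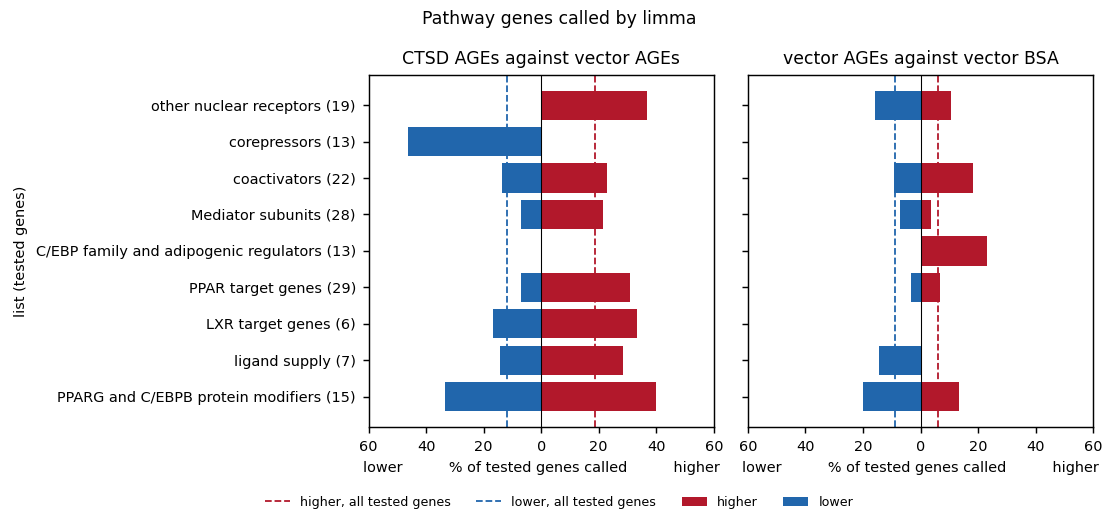
Share of tested genes of each list called higher (right, red) or lower (left, blue) by limma, for CTSD AGEs against vector AGEs and vector AGEs against vector BSA cells. Dashed lines are the shares over all tested genes, and the number of tested genes stands in brackets. Corepressors have 6 of 13 lower and 0 higher under CTSD, beside 12.0% and 18.6% of all tested genes.

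Coactivator genes were called in both directions. Under CTSD 5 of 22 rose and 3 fell, shares near the 18.6% and 12.0% of all tested genes, with a median of -0.01. Without CTSD AGEs replicate 1 only 1 fell. Bcl9 rose by 0.41 (adjusted p = 0.000547) and Kmt2d, a histone methyltransferase gene that works at enhancers, by 0.47 (adjusted p = 0.004). Ncoa5 fell by 0.54 (adjusted p = 0.003). Ncoa4 also fell by 0.54 (adjusted p = 0.0464), a call lost without any single library except vector AGEs replicate 2 (0.0551 to 0.145), and with no filter or with only these groups fitted (0.0802 and 0.08). Under AGEs 4 of 22 rose and 2 fell, beside 6.05% and 8.92% of all tested genes. Without vector AGEs replicate 3, 5 fell, and with voom 5 rose and 5 fell. Kmt2d fell by 0.67 (adjusted p = 0.00183), while the chromatin remodeller gene Smarcd3 rose by 0.45 (adjusted p = 0.00129) and the acetyltransferase gene Kat2a by 0.31 (adjusted p = 0.00984). Ep300 fell by 0.37 (adjusted p = 0.0421), a call kept only without vector AGEs replicate 3 or vector BSA replicate 2 among the fits with 1 library left out (otherwise 0.0549 to 0.142). It was also lost under either other scaling and with the length trend removed (0.0722, 0.107 and 0.0732). The PGC-1 genes Ppargc1a and Ppargc1b had 4 and 112 fragments over all libraries and were not tested.

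Mediator subunit genes other than Med1 had 6 of 28 higher and 2 lower under CTSD, beside 18.6% and 12.0% of all tested genes, with a median of 0.18. The higher share is near that of all genes. Med24 averaged 252 ± 3.54 FPKM in CTSD AGEs and 178 ± 4.94 in vector AGEs cells (SD, n = 3 each). It rose by 0.50 (adjusted p = 2.35e-05). Med25 rose by 0.58 (adjusted p = 0.000477) and Med20 by 0.40 (adjusted p = 0.00614). Ccnc, the cyclin of the kinase module, fell by 0.47 (adjusted p = 0.00219). Under AGEs 1 of 28 rose, Med27 (0.50, adjusted p = 0.0123), and 2 fell, beside 6.05% and 8.92% of all tested genes. Without vector AGEs replicate 3, 4 fell. The 2 were the kinase module genes Med12 (-0.40, adjusted p = 0.00932) and Med13l (-0.55, adjusted p = 0.0131). Their adjusted p were 0.0745 and 0.0503 once the length trend was removed. Med13l also lost its call without vector AGEs replicate 1 (0.0532) or vector BSA replicate 3 (0.0516).

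Among C/EBP family and adipogenic regulators, 0 of 13 passed under CTSD by limma (0 at an unadjusted p under 0.05, and 0 with voom). Of all tested genes, 18.6% were higher and 12.0% lower. The 2 most abundant were Klf4 at -0.07 (adjusted p = 0.668) and Stat5b at 0.08 (adjusted p = 0.445). Under AGEs 3 of 13 rose and 0 fell by limma, beside 6.05% and 8.92% of all tested genes. At an unadjusted p under 0.05, 2 fell, and 1 fell with voom. Without vector AGEs replicate 2 or vector BSA replicate 1, 1 rose. Stat5a averaged 25.3 ± 1.33 FPKM in vector AGEs and 17.5 ± 1.31 in vector BSA cells (SD, n = 3 each; 0.51, adjusted p = 0.00363). Stat5b rose by 0.30 (adjusted p = 0.0181), a call lost without vector AGEs replicate 2 or vector BSA replicate 1 or 2 (0.0515 to 0.0634). Gata2, which restrains fat cell formation, rose by 0.43 (adjusted p = 0.0346), a call lost without vector AGEs replicate 1 or 2 or vector BSA replicate 1 or 3 (0.0596 to 0.123) and with no filter (0.0541). Cebpa, the partner of Pparg in mature fat cells, was at 7.88 ± 0.939 FPKM in CTSD AGEs, 7.43 ± 0.758 in vector AGEs and 6.58 ± 0.359 in vector BSA cells.

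Known PPAR target genes could be tested for 29 of 52, and 14, among them the fat cell genes Fabp4, Adipoq and Plin4, were listed at 0 in all libraries. Under CTSD 9 of 29 rose and 2 fell, beside 18.6% and 12.0% of all tested genes, with a median of 0.31 beside 0.05. Without CTSD AGEs replicate 1, or over genes with a mean of at least 5 FPKM, 5 rose. With quantile normalization 6 rose and 3 fell, and with median-of-ratios scaling 7 rose and 3 fell. Slc25a20, the carnitine carrier gene of the mitochondrial membrane, had 50.4, 47.6 and 54.3 FPKM in CTSD AGEs libraries and 30.7, 34.8 and 37.2 FPKM in vector AGEs libraries (0.56, SE 0.08, adjusted p = 0.000584). Lpin1, a phosphatidate phosphatase gene, rose by 0.83 (adjusted p = 0.0028) at 2.92 ± 0.437 FPKM in CTSD AGEs and 1.20 ± 0.102 in vector AGEs cells. Ech1 rose by 0.52 (adjusted p = 0.0267), a call lost without CTSD AGEs replicate 1 or 2 or vector AGEs replicate 1 or 3 (0.0595 to 0.0803), with quantile normalization (0.0537) and with voom (0.108). The 2 that fell, named after their values were seen, were Hadhb (-0.50, adjusted p = 0.000112), a subunit of mitochondrial β-oxidation, and the catalase gene Cat (-0.23, adjusted p = 0.0473). Cat lost its call in each of the 9 fits with 1 library left out (0.0544 to 0.161), with no filter (0.055) and with only these groups fitted (0.0775). Angptl4, Cpt1a, Plin2 and Pdk4, which respond to PPAR ligands in many tissues, were at 0.42, 0.36, 0.41 and -0.26, did not pass, and are also named after their values were seen. They were low, averaging 1.08, 1.81, 0.874 and 2.63 FPKM over the 9 libraries, where log2(FPKM + 1) understates changes. Their ratios of mean FPKM, CTSD AGEs over vector AGEs cells, were 1.67, 1.46, 1.93 and 0.774. Such low genes could hardly be called, so not passing does not show a lack of change.

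Under AGEs 2 of these 29 targets rose and 1 fell, beside 6.05% and 8.92% of all tested genes, with a median of -0.14 beside -0.06. Etfdh, an electron carrier gene, fell by 0.52 (adjusted p = 0.00665). Me1 rose by 0.27 (adjusted p = 0.0209), a call lost without vector BSA replicate 2 or 3 (0.0675 and 0.0588). Hadhb rose by 0.20 (adjusted p = 0.0384), but not with replicate as a block (0.0504) and not without any single library except vector AGEs replicate 3 (0.0527 to 0.122). It also lost the call with no filter (0.0527) and with only these groups fitted (0.0807). Smooth muscle markers moved in the CTSD comparison as well: 3 of 6 tested markers rose, beside 18.6% of all tested genes. They were Acta2 (1.36, limma adjusted p = 5.17e-05), Tagln (0.93, adjusted p = 0.00129) and Tpm2 (0.71, adjusted p = 1.89e-05). Acta2 averaged 22.8 FPKM in CTSD AGEs and 8.25 FPKM in vector AGEs cells, and Tagln 22.3 and 11.3 FPKM. Smtn, Myl9 and Cald1 did not pass. Under AGEs Tpm2 fell by 0.40 (adjusted p = 0.00174). The summed smooth muscle markers were at 215 to 219 FPKM in CTSD AGEs, 139 to 140.4 in vector AGEs and 158 to 176 in vector BSA libraries. Most of this was Tpm2, with means of 132, 80.2 and 106 FPKM in these groups. The summed adipocyte markers were at 3.85 to 6.45 FPKM in CTSD AGEs, 3.86 to 5.12 in vector AGEs and 3.73 to 4.14 in vector BSA libraries, nearly all of it Cidec. Their part in the results above was not tested.

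Of LXR target genes 6 of 16 could be tested. Under CTSD 2 rose and 1 fell, beside 18.6% and 12.0% of all tested genes. Scd2, a fatty acid desaturase gene with a close paralog in Scd, rose by 0.58 (adjusted p = 0.000752) and Fasn, the fatty acid synthase gene, by 0.52 (adjusted p = 0.0121, and 0.0659 with the length trend removed). Abca1, the cholesterol exporter gene that LXR is best known for, fell by 0.41 (adjusted p = 0.0284), a call lost without CTSD AGEs replicate 1 or 2 or vector AGEs replicate 1 or 3 (0.0681 to 0.083). Under AGEs 0 passed by limma, beside 6.05% higher and 8.92% lower of all tested genes. At an unadjusted p under 0.05 and with voom the count was also 0. The most abundant were Lpcat3 at -0.02 (adjusted p = 0.884) and Scd2 at -0.09 (0.537). Lpcat3 overlaps Emg1 in the annotation.

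Of genes of ligand supply 7 of 26 could be tested, and 10 were listed at 0 in all libraries. Under CTSD 2 rose and 1 fell, beside 18.6% and 12.0% of all tested genes. The phospholipase gene Pla2g6 rose by 0.80 (adjusted p = 0.00229) and the retinal reductase gene Dhrs3 by 0.70 (adjusted p = 0.00652). Pla2g4a, whose product frees arachidonic acid, fell by 0.43 (adjusted p = 0.0143, and 0.0536 without CTSD AGEs replicate 1). Under AGEs, where 6.05% of all tested genes were higher and 8.92% lower, Pla2g4a was the 1 gene called. It fell by 0.40 (adjusted p = 0.0391). It kept that call only without CTSD AGEs replicate 1 or 3 or vector AGEs replicate 3 among the fits with 1 library left out (otherwise 0.0561 to 0.128). Both other scalings, removal of the length trend, no filter and a fit of only these groups also ended it (0.0596 to 0.08).

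Kinases and modifying enzymes that act on PPARγ or C/EBPβ had 6 of 15 higher and 5 lower under CTSD. Of all tested genes, 18.6% were higher and 12.0% lower. The list median was -0.03 beside 0.05, and 3 were lower without CTSD AGEs replicate 3. Cdk5 and Mapk3, whose products phosphorylate PPARγ, rose by 0.59 (adjusted p = 8.6e-05) and 0.54 (adjusted p = 1.73e-05). Cdk5 averaged 77.8 ± 1.64 FPKM in CTSD AGEs, 51.2 ± 2.41 in vector AGEs and 70.0 ± 4.66 in vector BSA cells (SD, n = 3 each). The deubiquitinase gene Usp7 fell by 0.46 (adjusted p = 0.00638). Under AGEs 2 of 15 rose and 3 fell, beside 6.05% and 8.92% of all tested genes. Without vector AGEs replicate 1, 0 were higher, and 1 was higher without any single vector BSA replicate. The ubiquitin ligase gene Nedd4 fell by 0.45 (adjusted p = 0.00789) and Cdk5 by 0.44 (adjusted p = 0.0017). Mapk3 fell by 0.19 (adjusted p = 0.0149), a call lost with median-of-ratios scaling (0.0979), with the length trend removed (0.0534) and without vector AGEs replicate 2 (0.0501) or vector BSA replicate 3 (0.0568). The SUMO ligase gene Pias1 rose by 0.25 (adjusted p = 0.0204), a call lost without vector AGEs replicate 1 or vector BSA replicate 2 or 3 (0.0612 to 0.073). The CTSD and AGEs comparisons share the vector AGEs libraries, so opposite signs in them are not independent.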

How the data were processed

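The authors deposited FPKM per gene for 9 libraries, computed after alignment of 150-base read pairs from poly-T captured RNA, per the labels' protocols. The sources used here name no aligner, counter or annotation release. The submitters' processing notes list the build mm10, although identifiers and chromosomes are rat, so deposited positions carry no build. The deposited gene length, another value in the table, gave fragments as whole steps of FPKM times length. Of values below 200 fragments, 99.14% to 99.44% came within 0.1 of a whole number.

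Genes reaching 1 FPKM in 3 or more libraries were tested as log2(FPKM + 1), which understates changes of low genes. limma 3.58.1 (R 4.3.3, intensity trend, 1 mean per group, all 9 libraries, two-sided) was also run on simulated data. There every gene had the same small spread, and the planted changes were larger than most named here. That run therefore cannot show how reliable the calls are. FPKM depend on the total assigned in a library. The 9 genes and the lists were chosen with earlier results of these data known. Named are, per list and comparison, up to 4 called genes with the largest change, or up to 2 of highest mean where none was called, and 5 genes at each end of likeness to Pparg; others are marked or are close relatives of the 9 given as values. Some genes that met the rule are not reported here. For Crabp2 and Rcor1 the row with the higher mean was used.

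Deviations of libraries with the same replicate number correlated between vector AGEs and vector BSA cells (r = 0.135, 0.142 and 0.152), so the block is given where it ends a call in that comparison. Alternatives changed the filter (none, or mean FPKM of 5), the scaling (median-of-ratios, quantile), the pseudocount (0.1), the groups fitted (only the 2 compared) or the method (voom on fragments), removed a trend over gene length, added the replicate block, or left out each library. Tables used python 3.11.15, numpy 2.4.6 and pandas 2.3.3, and figures matplotlib 3.10.9.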

Additional observations from a re-analysis of the deposited data

How the results depend on the processing

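The Pparg log2 difference stayed above 0 in all alternatives. It was 0.33 for AGEs and 0.31 for CTSD with median-of-ratios scaling, and with 1 library left out 0.23 to 0.30 for AGEs and 0.34 to 0.39 for CTSD. With 1 library left out, the pathway genes called numbered 16 to 35 for AGEs (9 to 14 higher, 7 to 21 lower) and 45 to 55 for CTSD (31 to 37 higher, 14 to 20 lower). With the gene length trend removed 7 fell under AGEs in place of 12. The replicate block gave 26 calls for AGEs and 56 for CTSD. Among calls named in the text it ended those of Hadhb under AGEs, and Ncoa4 (adjusted p = 0.0716) and Cat (0.0584) under CTSD. The block also brought Nr1h3 under the threshold under CTSD (0.0498), as did the settings given with that gene. For CTSD AGEs with vector AGEs the same-number correlations were 0.0798, -0.0346 and 0.074, and not every library correlated best with its own number. With so few libraries, such weak values cannot show whether libraries of the same number share a culture or batch. Of 52 calls that met the naming rule, 11 under AGEs and 5 under CTSD were lost with some library left out. Among pathway genes that met the naming rule, uncalled values that changed sign under AGEs were Lpcat3 (0.0439 with median-of-ratios scaling, 0.0344 with quantile normalization, 0.0218 with the length trend removed, and -0.0533 to 0.000487 with 1 library left out), Scd2 (0.0715 with the length trend removed) and Ctbp1 (-0.00889 to 0.0639 with 1 library left out). Under CTSD Klf4 did so (-0.163 to 0.0371 with 1 library left out). Small differences of the 9 genes also changed sign, as given with each gene, and Med1 ran from -0.0295 to 0.0249 under AGEs with 1 library left out. The cause of these shifts was not tested. Of the 9 genes Rxra had the fewest fragments, 67 to 106 in a library and 816 over all 9 libraries. Some called pathway genes had fewer. Over all 9 libraries Ech1 had 128 fragments, Lpin1 240 and Dhrs3 310.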
